A study of Mus musculus with 8 samples.

Results

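The regions described here are stretches of accessible chromatin near olfactory and vomeronasal receptor genes in mouse haematopoietic stem cells. They were chosen by position alone: the peaks of 8 ATAC-seq libraries on chromosomes 1 to 19 were merged where they overlapped by at least 1 bp, and a merged region was kept when the protein-coding gene span nearest to its midpoint lay within 50 kb and belonged to a gene named Olfr, Vmn1r or Vmn2r. This left 209 regions out of 88724 (0.236%). ATAC-seq uses a transposase that inserts sequencing adapters into open DNA, so that fragments pile up at accessible sites and a peak caller marks them. Long-term haematopoietic stem cells were sorted from bone marrow of mice aged 2 to 3 months by the sample labels and 3 months by the design text. The libraries were MUT T1, MUT T2, WT T1 and WT T2, with 2 of each. MUT and WT are the labelled iMOS Bcl11a genotypes, Bcl11a being a zinc-finger transcription factor that represses embryonic and foetal globin genes, and all 8 libraries carry Vav1-cre, a recombinase driven by a promoter active in blood cells. The sources used here do not say what separates the sorted populations T1 and T2. Nothing states that libraries came from separate animals, so p-values measure only the spread between libraries, which may be technical.

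Olfactory receptors are odour-sensing membrane proteins of the nose, and Vmn1r and Vmn2r genes encode the pheromone receptors of the vomeronasal organ. Their genes stand in long tandem clusters, each mature olfactory neuron expresses a single olfactory receptor allele, and the unused receptor genes are packed in heterochromatin. The class I olfactory receptors share 1 cluster on chromosome 7, which also encloses the beta-globin genes. The genome used here (mm10, with RefSeq annotation of the same build) lists 1454 receptor genes on these chromosomes: 1103 Olfr, 229 Vmn1r and 122 Vmn2r genes, or 7.07% of 20558 protein-coding genes. V1ra8 and V1rd19, vomeronasal receptor genes whose names fall outside the rule, count as non-receptor genes throughout.

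Few receptor promoters were accessible. Of 1265 receptor promoter windows listed by RefSeq, which cover 250 bases before a gene's start and a short stretch after it, 5 (0.395%) overlapped a region called in all 8 libraries, against 12412 of 18820 windows of other genes (66.0%). A sixth window, that of Vmn1r20, overlapped a region called in 1 library. The 250 bases before the start of 4 of these 6 genes stand here, because they are the receptor promoters with a motif match among those found open. They come from RefSeq promoters of GRCm38.p6 (the mm10 build), are printed 5′ to 3′ on the gene's own strand, and carry motif matches in capitals. Vmn2r29 lies at chr7:7278290-7278539 on the minus strand, Olfr520 at chr7:99734895-99735144 on the plus strand, Olfr1511 at chr14:52390772-52391021 on the minus strand, and Vmn1r20 at chr6:57431441-57431690 on the plus strand.
Vmn2r29: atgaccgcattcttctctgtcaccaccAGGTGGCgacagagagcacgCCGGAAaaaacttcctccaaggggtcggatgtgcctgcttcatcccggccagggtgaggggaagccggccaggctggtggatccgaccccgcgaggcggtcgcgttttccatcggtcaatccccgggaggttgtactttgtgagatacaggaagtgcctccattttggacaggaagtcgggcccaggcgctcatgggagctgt
Olfr520: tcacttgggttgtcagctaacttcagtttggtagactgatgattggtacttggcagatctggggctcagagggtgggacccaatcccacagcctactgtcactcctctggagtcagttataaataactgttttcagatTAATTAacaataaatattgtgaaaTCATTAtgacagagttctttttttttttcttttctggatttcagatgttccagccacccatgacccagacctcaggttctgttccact
Olfr1511: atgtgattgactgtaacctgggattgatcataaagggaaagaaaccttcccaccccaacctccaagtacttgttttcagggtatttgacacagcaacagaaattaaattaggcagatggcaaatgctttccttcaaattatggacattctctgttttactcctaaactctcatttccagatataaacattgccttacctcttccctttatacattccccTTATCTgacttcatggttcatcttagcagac
Vmn1r20: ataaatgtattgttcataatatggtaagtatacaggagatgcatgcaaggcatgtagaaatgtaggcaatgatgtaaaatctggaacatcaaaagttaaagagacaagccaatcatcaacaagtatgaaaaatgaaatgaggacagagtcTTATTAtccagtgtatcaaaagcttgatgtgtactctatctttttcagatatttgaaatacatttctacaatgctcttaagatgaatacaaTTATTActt
The 6 short motifs were searched for on both strands of these upstream bases. The motif of the EBF factors was spelled CCCNNGGG and that of homeodomain factors such as Lhx2 was spelled TAATNA. For the insulator protein CTCF the letters AGGNGGC served. The blood cell factors of the ETS family were searched as CCGGAA, those of the RUNX family as TGTGGT, and those of the GATA family as AGATAA. The capitals mark 1 CTCF and 1 ETS match in Vmn2r29, 2 homeodomain matches each in Olfr520 and Vmn1r20, and 1 GATA match on the opposite strand in Olfr1511. Olfr94 and Olfr95, the other promoters open in all 8 libraries, held none of the 6. Over all 20085 windows, 28.9% held the CTCF letters, 15.3% the ETS letters, 21.0% the homeodomain letters, 8.72% the GATA letters, 12.2% the RUNX letters and 13.9% the EBF letters. The same shares over receptor windows were 2.77%, 0.791%, 65.8%, 23.7%, 12.5% and 3.87%. A match describes letters and is not a binding site.

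Receptor promoters were also poor in CpG, the dinucleotide that marks many constitutively open promoters. Their median GC content was 35.7% and their median CpG ratio (observed over expected) 0.111, against 57.7% and 0.625 in other promoters. Vmn2r29 stood apart from its family with a GC content of 62.3% and a CpG ratio of 0.793. Compared within a band of CpG ratios from 0 to 0.2, chosen after seeing the data, 0.426% of 939 receptor windows were open in all 8 libraries, against 10.9% of 3351 windows of other genes. In the band from 0.2 to 0.4 the shares were 0 of 297 receptor windows and 32.2% of other windows.

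Receptor territory was far emptier of accessible regions than the rest of the gene-bearing genome. Territory here means every base that the rule would give to a gene family, which came to 47.5 Mb for receptors (3.04% of the bases within 50 kb of a protein-coding gene) and 1517 Mb for other genes. In the MUT libraries the receptor territory held 3.49 and 2.80 peaks per Mb in T1 and 3.37 and 3.07 in T2. In the WT libraries it held 3.05 and 3.20 peaks per Mb in T1 and 2.78 and 2.50 in T2. Other gene territory held 35.8 to 42.6 peaks per Mb in the same 8 libraries, so the ranges lay an order of magnitude apart. The means were 3.03 ± 0.328 peaks per Mb in receptor territory and 39.9 ± 2.55 in other territory (SD, n = 8), 13.2-fold lower in receptor territory, with a log2 ratio of −3.72 ± 0.0756. The ratio was below 1 in 8 of 8 libraries (exact two-sided sign-flip permutation test over libraries, p = 0.00781, the smallest p that 8 libraries allow, and 0.00781 after Benjamini-Hochberg adjustment over 13 such tests).

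The families differed in how empty they were. Olfr territory held 4.16 ± 0.504 peaks per Mb, Vmn2r territory 1.49 ± 0.126 and Vmn1r territory 1.29 ± 0.201 (SD, n = 8). Against other gene territory these were 9.61-fold, 26.7-fold and 31.3-fold lower, each in 8 of 8 libraries with an exact sign-flip p of 0.00781. The lowest Olfr value of any library, 3.38, lay above the highest Vmn1r value, 1.43, and the highest Vmn2r value, 1.65. The regions split into 171 near Olfr genes, 19 near Vmn1r genes and 19 near Vmn2r genes.

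Other tandem families were less empty. Tas2r territory (bitter taste receptors) held 9.12 ± 1.63 peaks per Mb, Defb territory (beta-defensins) 11.9 ± 1.58 and Pcdh territory (protocadherins) 14.7 ± 1.02. Krt territory, which takes in keratin and keratin-associated protein (Krtap) genes, held 26.2 ± 2.10. Zfp genes, zinc-finger genes that also stand in clusters, had 37.6 ± 1.70 peaks per Mb. Receptor territory was 2.98-fold lower than Tas2r, 3.92-fold lower than Defb, 4.85-fold lower than Pcdh, 8.65-fold lower than Krt and 12.4-fold lower than Zfp territory, each in 8 of 8 libraries (exact sign-flip permutation, p = 0.00781 for each). Receptor genes include many near-identical copies, and the sources used here do not say how reads that map to several places were handled, so calls in such copies are uncertain. The part of this in the low density was not tested.

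**Figure D1:**
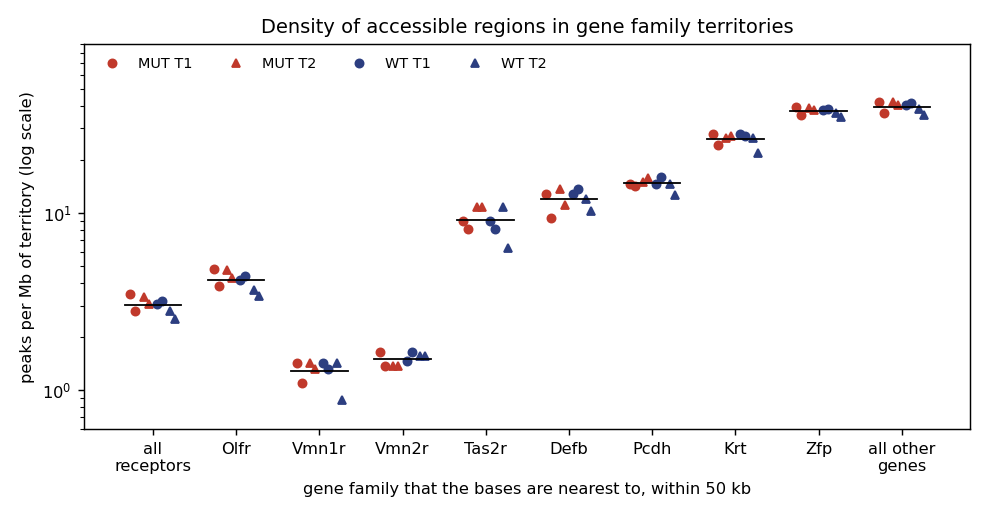
Peaks per Mb (log axis) in the territory of each gene family, 1 point per library with MUT left of WT, circles for T1 and triangles for T2, and a black line at the mean of the 8 libraries. The values of all receptors pooled lie between 2.50 and 3.49, under every value of the Tas2r, Defb, Pcdh, Krt and Zfp families.

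Most receptor genes were not the nearest gene of any region. Of the 1454 genes, 153 were the nearest gene of at least 1 region and 1301 (89.5%) of none, while 85.6% of other protein-coding genes had one. Gene ends were open even more rarely. In at least 1 library, a region reached within 1 kb of an end for 31 receptor genes (2.13%), against 76.0% of other protein-coding genes. In all 8 libraries this held for 19 receptor genes (1.31%), against 71.0% of other and 66.0% of all protein-coding genes. The shares that follow are also for all 8 libraries. Embedded genes, the 232 non-receptor genes that lie inside receptor clusters, reached 52.6% (122 genes). Tas2r genes were at 2.86%, Defb genes at 7.14%, Krt genes at 12.5%, Pcdh genes at 25.4% and Zfp genes at 81.6%. Within 5 kb of an end, the receptor share was 2.75%.

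The 19 receptor genes open at an end were 17 Olfr genes, Vmn1r4 and Vmn2r29. In order of their lowest fold enrichment, the first 15 were Olfr1509, Olfr658, Olfr433, Olfr1033, Olfr649, Olfr459, Vmn1r4, Olfr1511, Olfr94, Olfr1342, Olfr95, Vmn2r29, Olfr91, Olfr1358 and Olfr520. Fold enrichment is the authors' value for a peak, its summit over the local background, and it depends on the depth of the library. Values of different libraries are given as a description and were not tested against each other. Among these 15, Vmn1r4 and Olfr94 also had a non-receptor gene within 1 kb of the same region. These were Nt5c3, a pyrimidine nucleotidase, and Ubd, a ubiquitin-like protein. Whether a region at a receptor's end belongs to a neighbour's promoter was not tested.

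Where a receptor-linked region was called, it was narrower than other peaks and had a slightly higher fold enrichment. The median fold enrichment of these peaks in a list was 7.78 ± 0.646, against 6.77 ± 0.518 for peaks near other genes (mean ± SD over 8 libraries), 1.15-fold higher and higher in 8 of 8 libraries. The median width was 487 ± 26.6 bp against 588 ± 41.5 bp, lower in 8 of 8. The median −log10 q-value was 21.6 ± 2.29 against 23.7 ± 1.42, lower in 8 of 8. All 3 differences had an exact sign-flip permutation p of 0.00781. Of the regions, 89 of 209 (42.6%, exact binomial 95% interval 35.8 to 49.6%, counting error only) were called in all 8 libraries and 26 (12.4%) in 1, against 54.9% and 11.5% of all regions. The share called in all 8 was 35.3% of 17 Tas2r regions, 45.8% of 96 Pcdh regions and 48.1% of 81 Krt regions. It was higher in the other tandem families, at 55.6% of 18 Defb regions and 63.3% of 1140 Zfp regions. Of regions over 50 kb from any protein-coding gene it was 44.7%. Vmn2r regions were called in all 8 libraries in 10 of 19 cases, Olfr regions in 73 of 171 and Vmn1r regions in 6 of 19.

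The regions seldom lay in a receptor gene itself. Only 24 (11.5%) had their midpoint inside the gene span, against 66.5% of other regions, though receptor genes are also short, with a median span of 951 bp against 19648 bp. The median distance to the nearest non-receptor gene was 42.2 kb, and 94 regions had no such gene within 50 kb. Among other annotated features, 6 regions lay within 1 kb of an end of a transfer RNA gene, 4 of them in all 8 libraries. In the same way, 14 lay at long non-coding RNA genes and 10 at pseudogenes, counts that may overlap. No share over all regions stands beside these counts, so they do not show whether receptor-linked regions differ from others here. The 3 widest regions were one of 2112 bp near Vmn1r223 on chromosome 13, one of 2091 bp near Olfr1373, and one of 1824 bp near Olfr1358. All 3 were called in all 8 libraries at modest fold enrichment, between 3.94 and 9.30. The one near Vmn1r223 lay within 1 kb of an end of the transfer RNA genes n-TAagc10 and n-TVaac4. It lay as close to the long non-coding RNA gene Gm40832.

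The strongest receptor-linked regions, ranked by the lowest fold enrichment over all 8 libraries, were spread over 7 chromosomes. The region 27.8 kb from Vmn2r81 (chr10:79321779-79322841) led, with 19.03 and 15.1 in the MUT T1 libraries, 17.0 and 13.6 in those of MUT T2, against 19.4 and 19.4 in the WT T1 libraries and 19.3 and 19.6 in those of WT T2. All 4 WT values lay above all 4 MUT values there, a difference that was not tested. The list medians of receptor-linked peaks ran from 7.669 to 8.703 for WT and from 6.843 to 7.666 for MUT, so that the ranges almost touched. Highest were the WT T2 lists, at 8.703 and 8.636, from libraries of low depth, on which fold enrichment depends. Medians of peaks near other genes overlapped between the genotypes. Whether the difference near Vmn2r81 goes beyond that of the list medians, or follows depth, was not tested. A second region of the same cluster, 20.5 kb from Vmn2r82 (chr10:79416849-79417753), had 11.5 to 16.9. Both lay over 100 kb from the nearest non-receptor gene, Plpp2, a lipid phosphatase. The region inside Olfr658 (chr7:104646947-104647612) had 12.4 to 18.1 and lay in the class I cluster. The region 120 bp from Olfr1033 (chr2:86020037-86021003) had 11.3 to 15.2 and was the one region called in all 8 libraries in the largest cluster, over 500 kb from the nearest non-receptor gene.
The other 6 were closer to ordinary genes or in known loci. Regions near Olfr94 (12.4 to 17.4, 7.69 kb from Ubd), Olfr433 (11.9 to 15.5, 9.25 kb from the interferon-inducible gene Ifi205), Olfr1393 (11.6 to 17.0, 8.42 kb from the glycosyltransferase gene Mgat1) and Olfr9 (11.4 to 16.3, 16.7 kb from Mettl7b, at the long non-coding RNA gene 9030616G12Rik) had a non-receptor gene within 20 kb. The region near Olfr243 lay by the globin genes, and that of Olfr1509 by the T cell receptor alpha genes, both described further on.

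Receptor clusters were defined as chains of at least 5 receptor genes with gaps of at most 500 kb. There were 45, holding 1407 receptor genes in 54.3 Mb. Of these, 16, with 279 receptor genes in 14.01 Mb, held no receptor-linked region, and 25 held none common to the 8 libraries. The class I cluster, from Olfr543 to Olfr692 on chromosome 7, held 29 regions in 2.89 Mb, 17 of them called in all 8 libraries. Per library it had 24 and 22 in the MUT T1 libraries, 22 and 21 in those of MUT T2, against 23 and 20 in the WT T1 libraries and 21 and 20 in those of WT T2. The next were Olfr433 to Olfr220 on chromosome 1 with 10 regions in 0.408 Mb, Olfr160 to Olfr986 on chromosome 9 with 9 in 2.48 Mb, Vmn1r4 to Vmn1r31 on chromosome 6 with 8 in 1.55 Mb, and Olfr90 to Olfr136 on chromosome 17 with 8 in 1.25 Mb.
At the other end, the largest cluster, Olfr987 to Olfr1274 on chromosome 2, had 5 regions for 222 genes in 5.07 Mb, 1 of them in all 8 libraries. Vmn1r91 to Vmn1r183 on chromosome 7 had 1 region for 86 genes in 3.96 Mb, called in 3 of the 8 libraries. Of clusters with 10 or more genes and no receptor-linked region, the 3 with most genes were Olfr1275 to Olfr1318 on chromosome 2 (37 genes), Olfr24 to Olfr18 on chromosome 9 (35 genes) and Olfr291 to Vmn2r79 on chromosome 7 (32 genes). The plot of regions by cluster size shows clusters with many genes and few regions beside smaller ones with more.

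**Figure D2:**
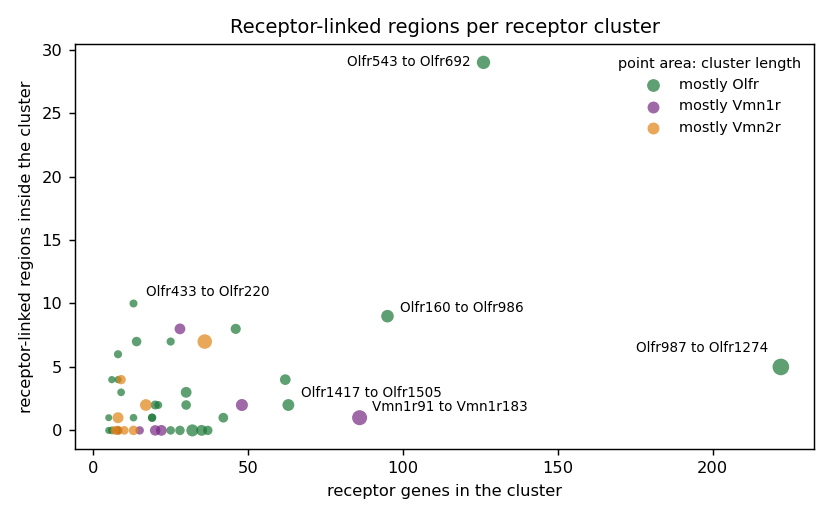
Receptor-linked regions inside each of the 45 clusters (y axis) against the receptor genes in the cluster (x axis), coloured by the commonest family, with the area of a point following cluster length. The class I cluster from Olfr543 to Olfr692 has 29 regions for 126 genes, while the largest cluster has 5 for 222 genes.

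Cluster borders were sharp. Counting every region whatever its nearest gene, peaks per Mb averaged 7.33 ± 0.917 in the last 50 kb inside a cluster, against 35.5 ± 2.68 in the first 50 kb outside (SD, n = 8 libraries). Further out they reached 43.3 at 50 to 100 kb, 45.2 at 100 to 250 kb and 46.2 at 250 to 500 kb. Further in they were 8.81 at 50 to 100 kb, 10.5 at 100 to 250 kb and 5.90 beyond 250 kb, with no steady fall. More than 50 kb inside, the mean was 7.16 ± 0.456 peaks per Mb, against 42.8 ± 2.49 within 250 kb outside, 5.99-fold lower in 8 of 8 libraries (log2 −2.58, exact sign-flip permutation p = 0.00781). The regions inside clusters were 137 receptor-linked ones and 353 others.

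Receptor-linked regions alone were sparser deep inside clusters than near their ends. Per Mb of receptor territory, peaks averaged 0.907 ± 0.0761 beyond 250 kb inside, 3.06 ± 0.556 at 100 to 250 kb, 5.70 ± 0.820 at 50 to 100 kb, 6.25 ± 0.680 in the last 50 kb inside and 13.9 ± 1.53 in the first 50 kb outside (SD, n = 8). The values at 50 to 100 kb and in the last 50 kb differed by less than their SD. Interiors beyond 250 kb were 6.88-fold lower than the last 50 kb in 8 of 8 libraries (log2 −2.78, exact sign-flip permutation p = 0.00781, a comparison added after seeing the data). Among the 19 clusters of at least 1 Mb the log2 difference was −2.85, and without the class I cluster it was −3.31. In both of these sets the mean at 50 to 100 kb was above that of the last 50 kb, at 7.02 against 6.76 and at 5.41 against 5.17.

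**Figure D3:**
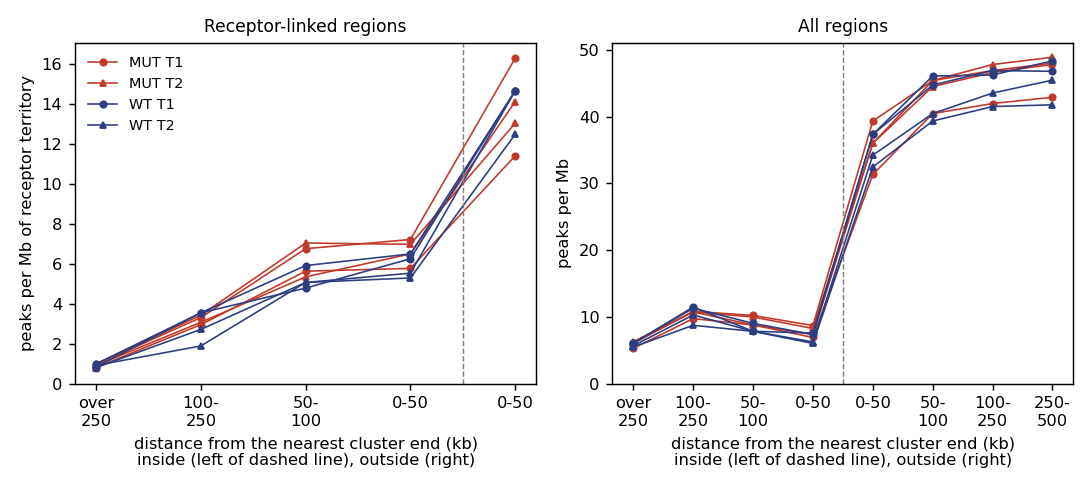
Left, receptor-linked peaks per Mb of receptor territory, and right, all peaks per Mb, by distance from the nearest cluster end in kb, with inside bins left of the dashed line. Each line is 1 library, MUT in red and WT in blue. All 8 lines on the left are lowest beyond 250 kb inside, and all 8 on the right are lower in the last 50 kb inside (7.33 on average) than in the first 50 kb outside (35.5).

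The class I cluster surrounds the beta-globin genes, which are highly active in developing red cells. Within 250 kb of the 5 Hbb genes there were 31 olfactory receptor genes and 8 receptor-linked regions, 5 of them in every library. A further 5 regions belonged to the Hbb genes, including one at the 3′ end of Hbb-bt, a gene on the minus strand, with fold enrichment from 4.70 to 7.27. The region 4.32 kb from Olfr243 (chr7:103711935-103712620), 100 kb from Hbb-bt on the lower-coordinate side, was the strongest. Its fold enrichment was 13.5 and 12.2 in the MUT T1 libraries, 11.4 and 11.9 in those of MUT T2, against 15.3 and 11.7 in the WT T1 libraries and 15.1 and 13.8 in those of WT T2, so that the genotypes overlapped. On the other side, 89.6 kb from Hbb-y, the region 3.75 kb from Olfr633 (chr7:103942460-103943170) had 9.47 to 12.3. The regions near Olfr65 (6.15 to 9.003), Olfr67 (5.42 to 10.02) and the first of 2 near Olfr66 (4.65 to 8.41) were weaker. The remaining 3 were called in 6 libraries (the second near Olfr66), 2 (near Olfr633) and 1 (near Olfr631).

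**Figure D4:**
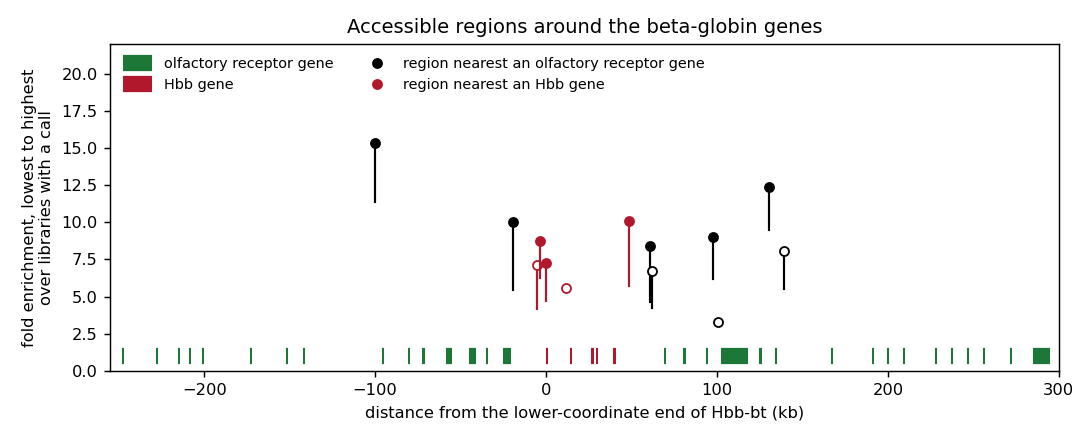
Fold enrichment (authors' values) of regions around the beta-globin genes, as a line from the lowest to the highest library with a call and a point at the highest, against distance in kb from the lower-coordinate end of Hbb-bt. Filled points were called in all 8 libraries and open ones in fewer, and the bars at the foot are olfactory receptor genes (green) and Hbb genes (red).

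On chromosome 14, the small cluster from Olfr221 to Olfr1507 runs into the T cell receptor alpha locus (Tcra), whose gene segments are joined in developing T cells. Olfr1507, Olfr1508 and Olfr1509 lie between the segment Trav1 and the rest of the locus. The cluster held 6 receptor-linked regions, 4 of them in all 8 libraries. The region at Olfr1509 (chr14:52450864-52451714), 21.99 kb from Trav1, had a fold enrichment of 14.6 and 16.4 in the MUT T1 libraries, 14.6 and 16.1 in those of MUT T2, against 15.1 and 13.5 in the WT T1 libraries and 13.9 and 15.1 in those of WT T2. The genotypes overlapped there. At Olfr1511, whose promoter is printed above, the values were 9.13 and 11.4 in the MUT T1 libraries, 11.99 and 10.2 in those of MUT T2, against 8.19 and 10.3 in the WT T1 libraries and 9.84 and 14.3 in those of WT T2, again overlapping. The region 549 bp from Olfr1508 (chr14:52461894-52462451) was called in all 4 MUT libraries, at 4.56 and 5.93 in T1 and 5.70 and 6.58 in T2, and in no WT library. A neighbour at Olfr1510, named after its values were seen, was called in all 4 MUT libraries and in 1 WT library.

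The receptor-linked share of peaks was slightly higher in MUT libraries, by a difference that did not pass the test. In the MUT libraries, 166 and 133 peaks in T1 and 160 and 146 in T2 lay in receptor-linked regions, or 0.228% and 0.212% of all peaks in T1 and 0.218% and 0.209% in T2. In the WT libraries there were 145 and 152 peaks in T1 and 132 and 119 in T2, or 0.206% and 0.214% in T1 and 0.200% and 0.195% in T2. The ranges overlapped, and the lowest share belonged to a WT T2 library. MUT averaged 0.217% ± 0.00842 and WT 0.204% ± 0.00795 (SD, n = 4 each), a difference of 0.0132 percentage points that did not pass the exact two-sided permutation test over libraries (p = 0.0857, 0.171 adjusted over 2 comparisons, smallest possible p 0.029). The difference was 0.0103 within T1 and 0.0161 within T2, where 2 libraries against 2 cannot go below p = 0.33 in an exact test. The T1 difference was 0.00203 without MUT T1 replicate 1, 0.0183 without MUT T1 replicate 2, and 0.00246 with equal numbers of peaks per library. T1 averaged 0.215% ± 0.00934 and T2 0.206% ± 0.0102 (exact permutation p = 0.229). Depth was lowest in both WT T2 libraries and in 1 MUT T1 library: the peak caller's background, a measure of relative depth, came to 3.38 and 2.03 fragments per position for MUT T1, to 3.21 and 3.10 for MUT T2, to 3.24 and 3.29 for WT T1, and to 2.45 and 1.89 for WT T2. With the pileups rescaled to the shallowest library and weaker peaks dropped, the MUT minus WT difference was 0.0103 percentage points (exact permutation p = 0.171), with 0.00722 within T1 and 0.0134 within T2. The T1 minus T2 difference was then 0.0109 (exact permutation p = 0.143). The rescaled lists still differed in size, from 60943 peaks in WT T2 replicate 2 to 70706 in MUT T2 replicate 1.

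**Figure D5:**
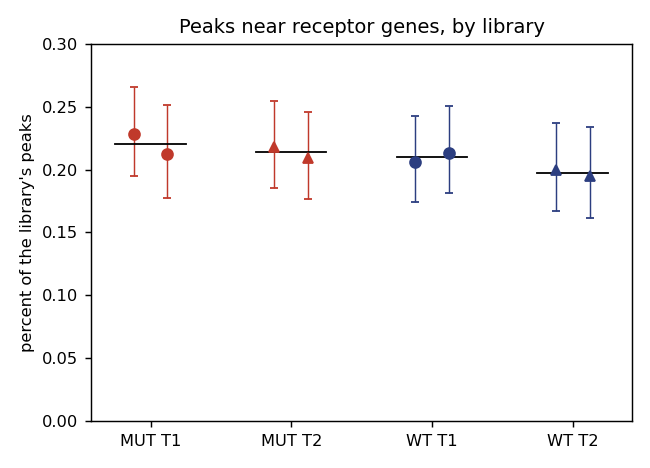
Percent of each library's peaks that lie in receptor-linked regions, with exact binomial 95% intervals (counting error only) and a line at each group's mean. The intervals of all 8 libraries overlap, between 0.162 and 0.266%.

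Region by region, few receptor-linked regions followed genotype. Called in all 4 libraries of one genotype and in none of the other were 4 of 209 (1.91%), against 0.283% of all 88724 regions. Among regions called in exactly 4 libraries, the only ones that can meet this rule, they were 4 of 14 (28.6%), against 6.17%. Single regions were described by their calls and not tested. In all 4 MUT libraries and no WT library were 3 (1.44%, against 0.223%): the region near Olfr1508, one near Olfr877 (chr9:37833347-37833671) and one near Olfr161 (chr16:3632757-3633497). Near Olfr877 the fold enrichment was 3.65 and 5.27 in MUT T1 and 5.46 and 7.07 in MUT T2. Near Olfr161, at the long non-coding RNA gene 6720473M11Rik, it was 6.39 and 6.92 in MUT T1 and 4.98 and 9.26 in MUT T2. The 1 in the reverse case (0.478%, against 0.0597%), 39.0 kb from Vmn2r87 (chr10:130536221-130536538), had 6.84 and 5.83 in WT T1, and in WT T2 it had 7.54 and 7.25. Of these 16 calls, 15 lay below their list's median for receptor-linked peaks, and a region missing from a list may be accessible below the caller's threshold. With equal numbers of peaks per library or with a 20 kb limit, 1 such region was left in each case. Over the first 70 Mb of chromosome 14, where Olfr1508 lies, 30 of 2428 regions (1.24%) followed genotype, or 11.95% of all that did in 2.74% of all regions.

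Within T1, 5 receptor-linked regions (2.39%) were gained, that is, called in both MUT libraries and in no WT library, against 1.25% of all regions, and 7 (3.35%) were lost, the reverse case, against 2.13%. Within T2, 17 (8.13%) were gained, against 3.93%, and 1 (0.478%), the region near Vmn2r87, was lost, against 0.444%. Gains also outnumbered losses in T2 over all regions, and both WT T2 libraries were shallower than both MUT T2 libraries. With equal numbers of peaks per library the T2 gains were 12 and the losses 2. With the pileups rescaled to the shallowest library they were 17 and 1. The part of depth in these counts was not tested. The 3 strongest of the 17 gained in the full lists were near Olfr701 (9.62 and 10.9 in MUT T2), Olfr1357 (7.80 and 7.67) and Olfr1358 (9.26 and 7.31). All of these were also called in both WT T1 libraries. In T1 the strongest were near Olfr161, Olfr432 (5.02 and 4.94 in MUT T1) and Olfr749 (7.53 and 4.94 in MUT T1), and in the reverse direction near Olfr996 (6.60 and 6.52 in WT T1), Olfr711 (7.31 and 6.06) and Olfr822 (5.89 and 6.99). Leaving out single libraries moved these counts most: without MUT T1 replicate 2 the T1 gains were 23, without MUT T1 replicate 1 they were 11 and the losses 22, and without WT T1 replicate 2 the gains were 12 and the losses 13. The T1 losses were 13 without WT T1 replicate 1. In T2 the gains were 28 without MUT T2 replicate 1 and 38 without MUT T2 replicate 2, and the losses lay between 2 and 8 without 1 or another T2 library.

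At the 50 kb limit itself, the last regions inside were near Vmn1r223 (49.0 kb, 7 libraries), Olfr291 (48.1 kb, 3 libraries) and Vmn2r87 (44.8 kb, all 8), and the first outside near Olfr267 (56.1 kb, 3 libraries), Olfr266 (57.8 kb, 4 libraries) and Olfr291 (58.8 kb, 6 libraries). In all, 17 regions had a receptor gene as their nearest beyond the limit, 3 of them in all 8 libraries.

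The label of the cells and the state of the genes that serve these receptors were checked at gene ends in the same way. All 10 stem cell genes examined, among them Mecom, Hlf, Meis1 and Procr, had a region within 1 kb of an end in all 8 libraries. Of 4 neutrophil genes, none did, and of 5 B cell, 4 T cell and 4 erythroid genes, 2, 1 and 3 did. Of 9 matched markers of olfactory and vomeronasal sensory neurons, Gnal, Adcy3, Cnga4 and Gng13 had a region in all 8 libraries, while Omp, Rtp1, Rtp2, Trpc2 and Ano2 had none in any. Omp is the classic marker of mature olfactory neurons, and Rtp1 and Rtp2 carry receptors to the cell surface. Of 11 genes known for receptor choice in olfactory neurons, 9 had a region at an end in all 8 libraries. These included Lhx2, Ebf1 and the histone demethylase gene Kdm1a. Emx2 had such a region in 6 libraries and Ldb1 in none. All 10 heterochromatin genes examined, such as Cbx5, Setdb1, Trim28 and Smchd1, were open in all 8. Of 11 matched genes of olfactory signal transduction, 6 were open in all 8, as were 3 of 4 of vomeronasal transduction, and 3 of 5 of chromatin architecture. Against these stood 66.0% of all protein-coding genes. Rad21 and Nipbl, of the architecture genes, had no region at an end in any library. Only the ends of the annotated span were examined, so a gene without a region there may still be open within its span.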

How the data were processed

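The authors deposited 1 list of peaks per library for 8 ATAC-seq libraries, so peaks were called per sample. The submitters' processing notes name Bowtie2, SAMtools, MACS2 and mm10. The sources used here give no versions and nothing on cut-site shifting or multi-mapping reads. For each peak the authors deposited a score, the ratio of its summit to local background (fold enrichment), the p-value and q-value as −log10, and the summit's offset. The lowest deposited −log10 q-value was 3.00.

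Regions were merged from peaks on chromosomes 1 to 19 and assigned to the nearest protein-coding gene in the RefSeq table of GRCm38.p6 (333 rows on alternative scaffolds left out). Each library holds 60944 to 73328 such peaks. Read totals are not in the lists. Relative depth was recovered from the ratio and −log10 p-value of each deposited peak, and the pileups came out whole, to the precision of the file, for 99.999 to 100% of peaks. Densities, member and other peaks were compared within libraries by exact sign-flip permutation, and groups by exact permutation over libraries. Distances run from a region's midpoint to a gene span. Python 3.11.15, NumPy 2.4.6, pandas 2.3.3 and SciPy 1.17.1 were used, and the scripts were tested on simulated data. Named regions were the 10 with the highest lowest fold enrichment among those called in all 8 libraries, those following genotype, the 3 strongest gained and lost per population, the 15 strongest at gene ends, the widest 3, those within 250 kb of Hbb genes, and the 3 on each side of the limit. Named clusters were the 5 with most regions and the 3 of 10 or more genes with fewest per Mb, ties broken by genes. The clusters from Olfr987, Vmn1r91 and Olfr221 were named after their values were seen. Members and lists were chosen with earlier results of these data known. Alternatives were a stricter q-value, equal numbers of peaks, summit windows, other distance limits, region edges, pileups rescaled to the shallowest library, and leaving out each library.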

Additional observations from a re-analysis of the deposited data

How the results depend on the processing

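Of 398 values computed under alternative settings, 374 were counted as unchanged, a label that did not require the same size. Among these was the log2 difference of all peaks between over 50 kb inside clusters and within 250 kb outside. It was −3.78 with a chain gap of 200 kb, against −2.58 in the main setting. The T1 minus T2 share was 0.00492 with equal numbers of peaks, against 0.00943. The density of receptor territory stayed between −3.76 and −3.62 (log2) against other territory. The difference of all peaks between cluster interiors and the 250 kb outside stayed between −3.78 and −2.33 (log2). Both had an exact sign-flip p of 0.00781 or, without 1 library, 0.0156, the smallest possible there. The MUT minus WT share stayed between 0.00942 and 0.0164 percentage points, with exact permutation p from 0.0571 to 0.2, and the T1 minus T2 share had p from 0.0571 to 0.629.

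The counts by genotype depended most on the settings. With equal numbers of peaks per library, the T1 difference between MUT and WT was 0.00246 (0.00203 to 0.0183 when libraries were left out), regions following genotype fell to 1, and T2 losses were 2. With a 20 kb limit, regions following genotype were 1, T1 gains 3, T1 losses 4 and T2 losses 0, and Vmn1r and Vmn2r regions numbered 11 and 9. Without single libraries, regions following genotype ranged from 4 to 6, T1 gains from 5 to 23, T1 losses from 7 to 22, T2 gains from 17 to 38 and T2 losses from 1 to 8. Fewer libraries then have to meet the rule, and how far this sets the counts was not tested. Gene ends within 5 kb reached 2.75%, by construction a wider reach. For all others the cause was not tested. Widths have no value with summit windows, which are of fixed size.

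With the replicate block (replicate number as a block), the MUT minus WT difference of 0.0132 and the T1 minus T2 difference of 0.00943 had p = 0.167 for MUT against WT and p = 0.222 for T1 against T2 (exact permutation within numbers, smallest possible 0.0556). Deviations of same-numbered libraries from their group means correlated at 0.00362 to 0.0414 over 12 pairs, 0 of them over 0.1. With 2 libraries per group the deviations mirror each other, so the pairs repeat values. Such correlations of calls cannot show whether same-numbered libraries came from the same animal. Depth differed between libraries by background values from 1.89 to 3.38, and near the caller's threshold a missing call cannot be told from a shallow library.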

Other observations

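Chromosome X lies outside the rule that chose the regions. RefSeq lists 7 receptor genes there, and none of the 8 libraries had a peak within 50 kb that was nearest to one of them, while each library had 1288 to 1558 peaks on that chromosome.

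The most regions nearest to a single receptor gene was 6.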
